A study of Homo sapiens with 2 samples.

Results

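The genes described here are MEIS1, MEIS2 and PBX3, taken from a list of 10 progenitor transcription factors that also holds HOXA3, HOXA5, HOXA6, HOXA7, HOXA9, HOXA10 and HOXA11. Members were all probe sets that the platform annotation assigns to 1 listed gene alone. That rule found 4 probe sets for 3 of the 10 genes, among 54613 probe sets and 19775 named genes on the array. The other 7 genes, all of the HOXA cluster, have no probe set named for them here and were not analysed here. The label of a HOXA and MEIS progenitor set therefore describes the list, and the measured members are its TALE homeobox partners alone.

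Expression arrays were run on 2 samples labelled HL60, a human promyelocytic leukaemia line, whose cell type the labels give as haematopoietic stem. The untreated sample carried no added drug. The other was exposed to 3 µg/ml eltrombopag, a drug that activates the thrombopoietin receptor and chelates iron, for 36 h. Both grew in RPMI with 10% serum, and no vehicle or culture time is given for the untreated sample. Each group holds 1 array, so no difference below has a replicate check, no test of the treatment was possible, and an effect of the drug, of the vehicle, of culture time or of the array cannot be told apart.

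HOX proteins are homeodomain transcription factors encoded in clusters, and those of the HOXA cluster are active in haematopoietic stem and progenitor cells and are silenced as myeloid cells mature. They bind DNA together with TALE homeodomain proteins, the PBX and MEIS families, which raise the specificity and the strength of binding. HOXA9 with MEIS1 is a well-known pair in acute myeloid leukaemia, PBX3 is a partner of HOXA9 in such leukaemias, and MEIS2 is a close relative of MEIS1.

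Because PBX and MEIS proteins bind short defined letters, the upstream sequences of the 3 measured genes are shown with matches to such letters. Each is 250 bases ending just before a RefSeq transcript start, in GRCh38.p14, read 5′ to 3′ on the strand of the gene. Capitals mark TGACAG, the MEIS core, or TGATTNAT, a joint HOX and PBX site, on either strand. These 2 patterns do not overlap in the windows shown. The PBX3 and MEIS2 windows lie inside the span RefSeq gives the gene, upstream of an internal start, and the MEIS1 window lies just outside its gene.
PBX3, chr9:125747933-125748182, plus strand: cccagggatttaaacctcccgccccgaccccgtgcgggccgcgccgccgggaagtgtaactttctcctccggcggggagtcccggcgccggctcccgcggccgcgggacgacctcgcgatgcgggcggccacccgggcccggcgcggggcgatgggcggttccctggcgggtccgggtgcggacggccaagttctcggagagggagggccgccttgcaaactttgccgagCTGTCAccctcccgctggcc
MEIS2, chr15:37098697-37098946, minus strand: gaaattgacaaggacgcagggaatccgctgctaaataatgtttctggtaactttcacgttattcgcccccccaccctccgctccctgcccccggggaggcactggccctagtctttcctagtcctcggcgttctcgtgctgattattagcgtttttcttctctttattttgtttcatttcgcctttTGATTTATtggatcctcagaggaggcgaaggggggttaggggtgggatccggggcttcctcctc
MEIS1, chr2:66434875-66435124, plus strand: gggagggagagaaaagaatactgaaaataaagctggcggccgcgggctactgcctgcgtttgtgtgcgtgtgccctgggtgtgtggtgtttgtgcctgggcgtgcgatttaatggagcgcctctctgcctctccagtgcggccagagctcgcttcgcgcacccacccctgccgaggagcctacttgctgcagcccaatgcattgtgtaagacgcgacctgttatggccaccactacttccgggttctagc
The PBX3 window holds 1 match to the MEIS core, read on the opposite strand, and none to the joint site. The MEIS2 window shown holds 1 joint site and no MEIS core, and a second MEIS2 window holds neither. The MEIS1 window holds neither. Among 34943 upstream windows of this length, 13.1% hold the MEIS core and 2.49% the joint site. A match is a description of letters and the arrays do not measure binding. The PBX3 window has 75.6% G and C, against a median of 58.0% over all windows.

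Values are MAS5 signals, a linear brightness per probe set computed within each array. A floor at the 60th percentile of both arrays pooled, a signal of 56.91, separates probe sets read as measured from those that are not. In the untreated array 51.0% of named genes lay above it and in the eltrombopag array 49.7%. Signal depends on the probes as well as on the transcript, so levels are read against the floor and are not ordered between genes.

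MEIS2, a homeobox cofactor of HOX and PBX proteins, was well above the floor in both arrays. Its 1 probe set read 800.2 in the untreated and 719 in the eltrombopag array, at percentiles 92.1 and 91.8 of all probe sets. These ranks are not read as transcript levels, since signal depends on the probes. As a log2 ratio, eltrombopag over untreated, the difference was -0.15, or 1.11-fold. The median over the 9597 genes above the floor in both arrays was -0.12, and 46.2% of those genes had a lower ratio than MEIS2. The probe set carries the suffix _s_at, which marks probes that can match more than 1 transcript.

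PBX3, the DNA-binding partner that joins HOX proteins through its own homeodomain, was also above the floor in both arrays. Its 1 probe set read 375 in the untreated and 225 in the eltrombopag array, at percentiles 84.2 and 79.0. The eltrombopag array was the lower, with a log2 ratio of -0.74, or 1.67-fold. Relative to the median of all genes the difference was -0.62 on the log2 scale, and 6.31% of these 9597 genes had a lower ratio. In these bulk samples, fewer cells that express PBX3 and less PBX3 RNA per cell cannot be told apart. PBX3 has no second named probe set to set beside this value. Over the array, the log2 ratios of the 2 brightest probe sets of a gene disagreed with an SD of 0.26 per probe set (4373 genes), a spread within arrays and not between cultures.

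MEIS1, the usual partner of HOXA9, lay at the floor. Its brighter probe set read 52.4 in the untreated and 57.7 in the eltrombopag array, at percentiles 58.0 and 60.9. Only the eltrombopag value passed the floor, by less than 1 signal unit, and the log2 ratio without a floor was 0.14. The dimmer probe set read 15.7 and 21.6, below the floor in both. Neither array thus gave MEIS1 a level clearly above the floor, and its fold is not interpreted.

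None of the 3 genes differed by 2-fold. Among 10313 genes above the floor in at least 1 array, 0.650% were at least 2-fold higher in the eltrombopag array and 2.27% at least 2-fold lower. At 1.5-fold PBX3 was the 1 member past the threshold, on the lower side, where 11.8% of all genes lay, against 3.49% on the higher side. MEIS2 and PBX3, the 2 members above the floor in both arrays, had a median log2 ratio of -0.45, against -0.12 for all genes, and this median rests on 2 values.

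**Figure D1:**
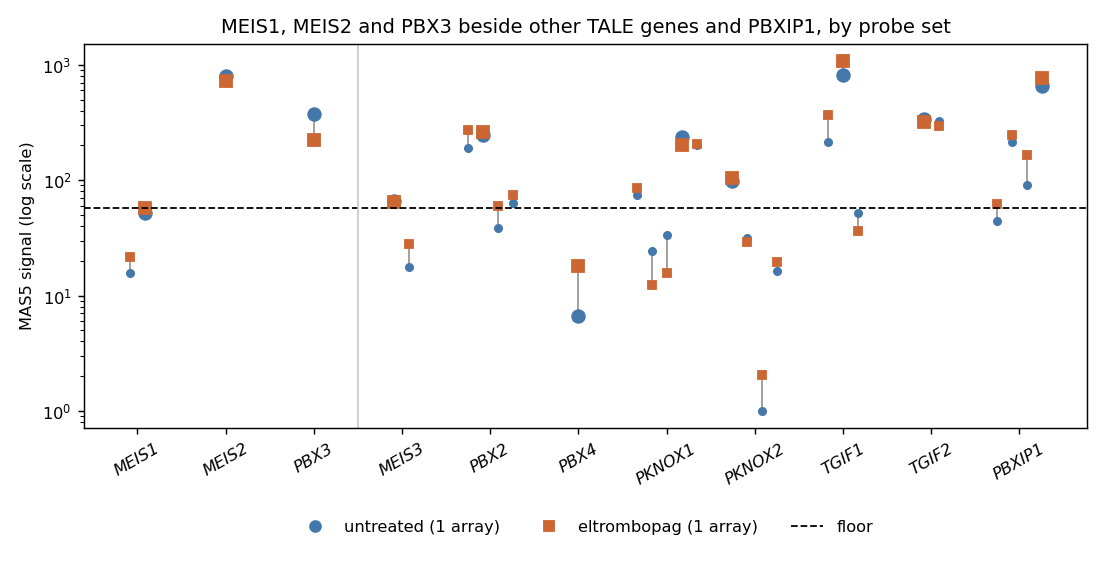
MAS5 signal (log axis) of every probe set of MEIS1, MEIS2 and PBX3 (left of the grey line) and of the other TALE genes and PBXIP1 (right), with circles for the untreated and squares for the eltrombopag array, large symbols for the probe set used for a gene, and a dashed line at the floor of 56.91. MEIS2 at 800.2 and 719 and PBX3 at 375 and 225 lie above the floor in both arrays, and MEIS1 sits on it.

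The other TALE genes and PBXIP1, a protein that binds PBX proteins, were mostly measured. Of 8 such genes, 7 lay above the floor in both arrays, and PBX4, at 6.68 and 17.9, lay below it in both. None of the 7 differed by 2-fold, and their log2 ratios ran from -0.23 for PKNOX1, a MEIS-related cofactor, to 0.39 for TGIF1, a TALE repressor, with a median of 0.09. PBX3 at -0.74 lay below this whole range. PBX2, the other PBX gene above the floor, read 248 and 264, with log2 ratios of 0.09, 0.51 and 0.25 in the probe sets above the floor in both arrays. PBX2 thus lay above 0 in each probe set while PBX3 lay below 0, and the difference between them was not tested. MEIS3 read 66.6 and 65.3, just above the floor.

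HOX cluster genes, of which the protein-coding ones encode partners of MEIS and PBX proteins, were largely below the floor where they could be read. Within the HOXA cluster, HOXA2, an anterior HOX gene and the only protein-coding one with a named probe set, read 19.2 and 11.7. The noncoding RNAs HOXA-AS2, HOXA-AS3 and HOXA11-AS, which lie among the listed HOXA genes, were below the floor in both arrays in each of their probe sets, the brightest being HOXA11-AS at 46.2 and 42.9. HOTTIP, a noncoding RNA at the posterior end of the cluster, read 48.4 and 57.1 in its brightest probe set, just past the floor with eltrombopag. In all, 0 of 10 probe sets of these 5 genes passed the floor without the drug and 1 with it. EVX1, a homeobox gene next to the cluster and not counted here, read 61.0 and 49.96 in its brighter probe set, above the floor without the drug alone. Levels of the HOXA RNAs between them were not analysed here, and the antisense RNAs do not stand for them.

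Of 27 named HOX genes of the HOXB, HOXC and HOXD clusters, 3 lay above the floor in both arrays and 24 below it in both. Over all 19775 named genes, 9597 lay above it in both and 9462 below it in both. No HOXB gene of 10 was above the floor in either array, the highest signal among 19 probe sets being 48.2 without and 46.0 with eltrombopag. HOXC4 read 74.2 and 107, a log2 ratio of 0.53. HOXD1 read 68.2 and 76.0, a log2 ratio of 0.16. HOXD13, a posterior HOX gene, was the one far above the floor, at 694 and 634 with a log2 ratio of -0.13. Its other probe sets read 72.5 and 49.0, and 22.9 and 16.7, so its probe sets do not give 1 level.

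**Figure D2:**
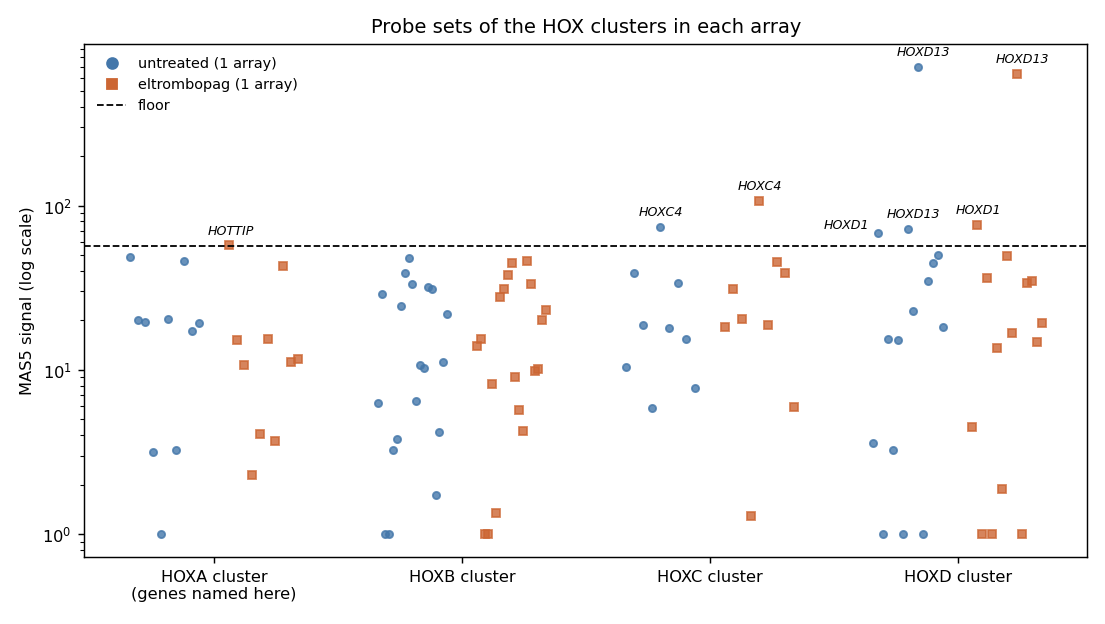
MAS5 signal (log axis) of each probe set of the HOXA cluster genes named here, HOXB, HOXC and HOXD, with circles for the untreated and squares for the eltrombopag array, the dashed line at the floor of 56.91, and gene names on points above it. HOXB points all lie below the floor, and HOXD13, at 694 and 634 in its brightest probe set, stands highest.

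Most regulators of HOXA transcription lay above the floor in both arrays, and 0 differed by 2-fold by the probe set used. MLL, encoded by KMT2A, and its partner menin keep HOXA genes active, and Polycomb complexes repress them. Of 24 activators and cofactors, 19 lay above the floor in both arrays and 0 differed by 2-fold, with a median log2 ratio of -0.11. KMT2A read 1029 and 1184 and MEN1 476 and 488, log2 ratios of 0.20 and 0.03. DOT1L, the H3K79 methyltransferase, had the largest ratio, 0.51, and 0.54 in its other probe set above the floor in both arrays. CDX1, CDX2 and CDX4, homeobox activators of HOX genes, lay below the floor in both arrays. MLLT3, at 78.4 and 56.0, and MLLT10, at 58.3 and 47.8, passed it in the untreated array alone. Of 18 Polycomb genes and opposing demethylases, all lay above the floor in both arrays, 0 differed by 2-fold by the probe set used, and the median was -0.14. PHF19, a Polycomb subunit, had ratios of -0.71, -0.42 and -1.06 in its 3 probe sets, and KDM6B, a demethylase that removes the Polycomb mark, had ratios from 0.42 to 0.79 in 5. The probe sets of RBBP4, also of this list, did not agree, with ratios from -1.17 to 0.35.

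Genes often described as targets of HOXA9 and MEIS1 did not share 1 direction. Of 20 named, 15 lay above the floor in both arrays, 5 with a ratio above 0 and 10 below, and the median was -0.08. Over all genes above the floor in both arrays, 63.1% were below 0 and the median was -0.12, so the list was near the array as a whole. After lowess 8 of the targets were above 0 and 7 below, with a median of 0.01. CCND3, cyclin D3, was the 1 member past 2-fold, from 970 to 381 (2.55-fold lower), though not as the mean over its probe sets. Among all genes above the floor in at least 1 array, 2.27% were at least 2-fold lower. ID2, an inhibitor of differentiation factors, had ratios of -0.84 and -0.99. MYB, a progenitor transcription factor, read 4349 and 5855, a ratio of 0.43. FLT3, ERG, CD34 and HLF lay below the floor in both arrays.

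The identity named in the labels was set against its markers, since the level of the HOX partners was listed as evidence on it. Over all named genes, 9597 of 19775 lay above the floor in both arrays. Of 16 stem and early progenitor genes, 5 lay above the floor in both arrays, among them GATA2, at 2589 and 2131, and SPINK2, at 268 and 398. The surface markers CD34, KIT and PROM1 lay below it in both, like 7 others. Of 18 myeloid progenitor genes, 13 lay above the floor in both. MPO, the granule enzyme myeloperoxidase, read 1556 and 1467, while ELANE, SPI1, CSF2RA, LYZ and CLEC11A were below the floor in both. CEBPA, the granulocyte lineage factor, was 2.93-fold lower and CSF3R, the G-CSF receptor, 2.25-fold lower with eltrombopag. Among all genes above the floor in at least 1 array, 2.27% were at least 2-fold lower. CTSG and RNASE2, also of the myeloid progenitor list, had log2 ratios of -0.84 and -0.76. Of the 13 genes, 10 had a ratio below 0 and 3 above, and over all genes above the floor in both arrays 63.1% were below 0. MEIS2 and PBX3 were thus measured beside an incomplete set of myeloid markers and without the classical surface markers of stem cells. Genes typical of plasma cells were measured too, 15 of 16 above the floor in both arrays. Among them JCHAIN read 7972 and 4866, and XBP1 3441 and 3268.

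Lists of genes typical of several other cell types summed to a lower signal in the eltrombopag array. No sum over all genes is set beside these, so the sums have no background here. Of 16 genes typical of plasma cells, 15 passed the floor in both arrays, 13 of these had a ratio below 0, and 6 were at least 2-fold lower. Over all genes above the floor in both arrays, 63.1% had a ratio below 0. Among genes above the floor in at least 1 array, 2.27% were at least 2-fold lower. The 6 plasma cell genes past 2-fold were IRF4, a plasma cell regulator, TNFRSF17, SLAMF7, FKBP11, POU2AF1 and SDC1. The signals of the list summed to 26200 without and 17540 with eltrombopag, or 67.0% of the former, and CD27 was the 1 gene below the floor in both. The same share was 63.6% for the fibroblast and epithelial list and 68.9% for the erythroid and megakaryocyte list. It was 78.8% for the T cell list and 79.5% for the B cell list. Each of these lists had only 3 genes above the floor in both arrays. All 3 had a ratio below 0, except in the B cell list, where 2 lay below 0 and 1 above. NFE2, an erythroid and megakaryocyte factor, was 2.09-fold lower, PAX5, a B-cell factor, at least 2.32-fold lower, and SPARC, a matrix protein, at least 2.12-fold lower. None of the 3 stayed past 2-fold with a floor at the 75th percentile. NFE2 also fell short after quantile normalization or lowess, and PAX5 and SPARC as the mean over probe sets. Without _x_at and _s_at probe sets, NFE2 and SPARC were not counted. BLNK, which acts below the B-cell receptor, read 57.6 and 118, or 2.05-fold higher, from just above the floor in an _s_at probe set. With a floor at the 75th percentile, or without _x_at and _s_at probe sets, no B cell gene was 2-fold higher. The share was 96.1% for the myeloid progenitor list and 91.5% for the stem and early progenitor list. Without the brightest gene of each list, it was 75.2% for the myeloid progenitor list (without MYB) and 105.8% for the stem list (without GATA2). On that basis the plasma cell list gave 69.55% and the erythroid and megakaryocyte list 71.1%. The fibroblast and epithelial list gave 76.3%, the T cell list 87.3% and the B cell list 89.5%. Such sums are carried by the brightest probe sets, and each of these lists summed lower with eltrombopag over all its genes. The part of these genes in the PBX3 difference was not tested.

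**Figure D3:**
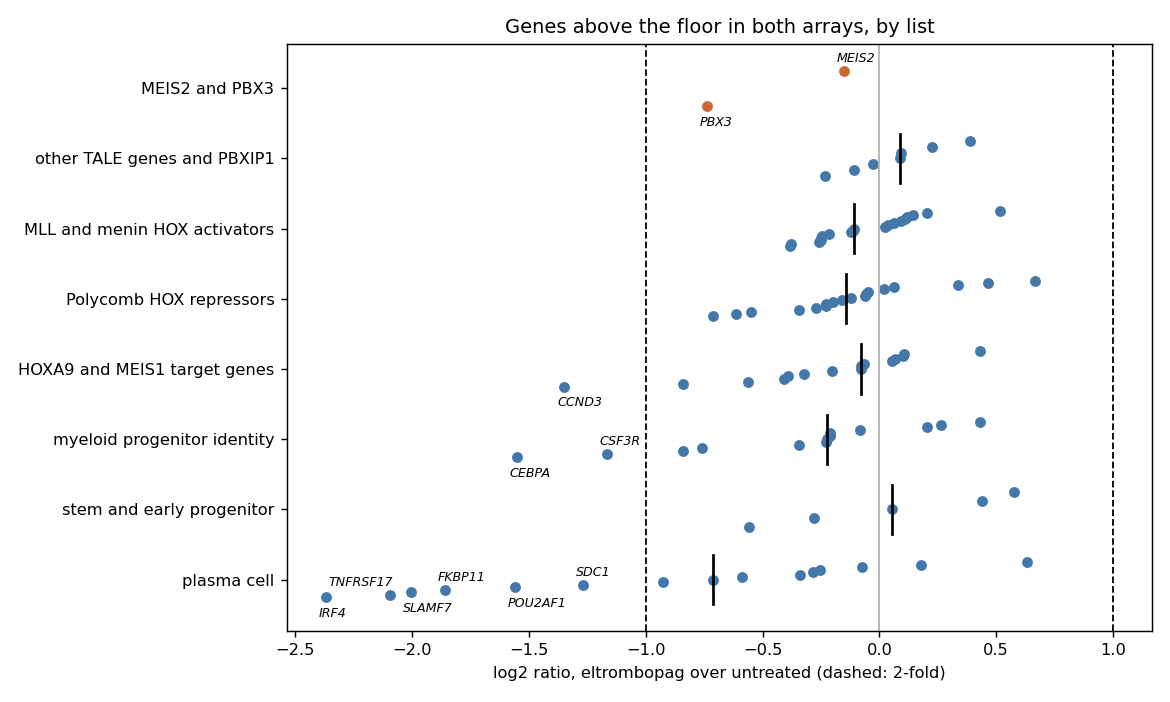
Log2 ratio of eltrombopag over untreated for each gene above the floor in both arrays, 1 row per gene list, with a black bar at the median of the lists below the top row, dashed lines at 2-fold and names on MEIS2, PBX3 and genes past 2-fold. PBX3 at -0.74 lies left of every gene of the other TALE list, and 6 plasma cell genes lie past 2-fold lower.

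The ratios of MEIS2 and PBX3 depended little on scaling. PBX3 ran from -0.74 on the deposited scale to -0.61 after lowess, and MEIS2 from -0.15 to -0.06. Each shift was close in size to that in the median of all genes, which moved from -0.12 to -0.01.

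**Figure D4:**
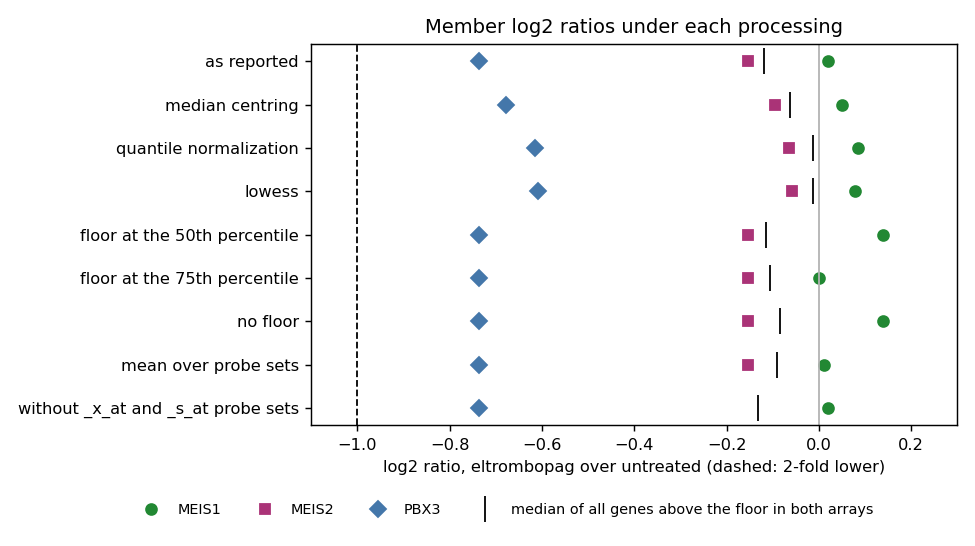
Log2 ratio of eltrombopag over untreated for MEIS1, MEIS2 and PBX3 under each processing, with a black tick at the median of all genes above the floor in both arrays and a dashed line at 2-fold lower. PBX3 stays between -0.74 and -0.61 and MEIS2 between -0.15 and -0.06; MEIS2 has no point in the bottom row, since its 1 probe set carries the suffix _s_at.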

How the data were processed

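Expression arrays measured transcript levels in 1 untreated and 1 eltrombopag sample from biotinylated cRNA, per the labels' protocols. The values deposited by the authors are linear intensities, 1 for each probe set on each array. The submitters' processing notes name MAS5, and its scaling target is not given in the sources used here. Probes are combined within each array, so low intensities carry large relative error, and 1 array per group limits the precision. Of 54613 probe sets, 41091 name 1 gene in the platform annotation, 1801 name several and 11721 are not listed; symbols were updated by gene identifier through RefSeq GRCh38.p14. From these values, signals below the floor were raised to it, log2 was taken, and the probe set with the highest mean log2 signal stood for a gene (Python 3.11.15, pandas 2.3.3). Genes were counted past a 2-fold difference, with no p-value. The counting script was tested on simulated data. Named genes were every member, list genes past 2-fold and some of the up to 4 others per list with the largest ratio that the rule allows. Cluster genes above the floor were named, and some but not all of the cell type genes above it. The genes named as below the floor, KMT2A, MEN1, MLLT3, MLLT10, RBBP4, JCHAIN and XBP1 were named after their values were seen. Members and lists were chosen with earlier results of these data known. Upstream sequences and gene order are from RefSeq GRCh38.p14; no build is given for the array. Alternatives were other scalings, floors, probe set rules and folds.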

Additional observations from a re-analysis of the deposited data

How the results depend on the processing

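No member reached 2-fold under any of the scalings, floors and probe set rules tried; at a 1.5-fold threshold 1 member, PBX3, was lower, and at 3-fold none. The median log2 ratio of members above the floor in both arrays was -0.45; a floor at the 50th percentile, or none, gave -0.15, because MEIS1 then entered, and without _x_at and _s_at probe sets it was -0.74, PBX3 alone. That last setting left 1 member above the floor in the untreated array in place of 2. The genes of the other lists past 2-fold numbered 13; the count was 28 with no floor, 8 with the mean over probe sets, 29 at 1.5-fold and 4 at 3-fold. Genes higher with eltrombopag made up 22.3% of all 2-fold differences as deposited; the share was 30.6% with median centring, 44.8% with quantile normalization and 44.0% with lowess. Of the 7 measured genes of the other TALE list, 4 had a ratio above 0 as deposited, 5 with median centring and 6 with quantile normalization or lowess. No log2 ratio of a single member moved by more than 0.26, the SD per probe set given above. No paired analysis was possible because each group holds 1 sample. MEIS1 and most HOX genes lie where the signal is too low for a fold.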

Other observations

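The genes beside the members in RefSeq order were read after the values of the members had been seen. Both protein-coding neighbours of PBX3 were lower in the eltrombopag array by the probe set used, as were 63.1% of all genes above the floor in both arrays. MAPKAP1, a subunit of the TORC2 kinase complex, read 600.4 and 302, a log2 ratio of -0.99, with ratios of -0.51 and 0.29 in 2 dimmer probe sets that passed the floor in both arrays. MVB12B, an ESCRT subunit, read 178 and 101, a ratio of -0.82, and its other probe sets lay below the floor in both arrays. PBX3-DT, the transcript divergent from PBX3, lay below the floor in both arrays. Beside MEIS1, SPRED2 had a ratio of -0.29 and ETAA1 of -0.07, and beside MEIS2, CDIN1 had -0.10. SKAP2, a gene beside the HOXA cluster, read 796 and 845 in its brightest probe set, a ratio of 0.09, and had ratios of 0.03, 0.80 and 0.50 in others above the floor in both arrays. HIBADH, on the other side of the cluster, read 204 and 154, a ratio of -0.40. No test of position was made.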
